A study of Caenorhabditis elegans with 4 samples.

Results

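The BMP-like DBL-1 pathway of the nematode Caenorhabditis elegans was followed through 10 genes, taken by name from deposited tables of 46904 genes: dbl-1, lon-2, sma-10, sma-6, daf-4, sma-2, sma-3, sma-4, sma-9 and lon-1. All 10 were found in the tables. RNA came from whole wild-type (Bristol N2) hermaphrodites. One food held Lactiplantibacillus sp. MH-1, a lactic acid bacterium, which the sample labels name together with Escherichia coli OP50, and the control food was OP50 alone, the usual laboratory diet. Each food had 2 libraries, made from poly(A) RNA of about 200 worms per group. The labels do not agree on age and feeding time: worms aged 4 days after 1 day of feeding in the design text, but worms aged 1 day at the start and 2 days of feeding in the treatment protocol. That protocol also names MH-1 without OP50.

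Groups follow the sample titles, and libraries are named by those labels, OP50 + MH-1 or OP50. The deposited tables contradict the titles: in each of the 4, the count column is headed with the opposite food. If the headers are right, every sign in the comparisons turns round, with size and p-value kept. Nothing in the labels says that the replicates were separate cultures, so the spread on which the p-values rest may be technical. Totals were 15771890 and 21572225 counts in the libraries labelled OP50 + MH-1, against 18485858 and 17593775 in those labelled OP50, of which the 10 genes together took between 3587 and 5682 counts.

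DBL-1 is a secreted ligand of the bone morphogenetic protein family, made largely by neurons. It binds a pair of receptor kinases on cells of the epidermis, intestine and pharynx, which activate Smad proteins that enter the nucleus and set transcription. In C. elegans the pathway is known for the control of body size, of male tail development, of the mesoderm and of innate immunity: worms lacking most of these genes are small (Sma), while worms lacking lon-1 or lon-2 are long (Lon).

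None of the 10 genes differed between the foods past the threshold. With edgeR's quasi-likelihood test and an adjusted p of 0.05 over 12640 genes, 0 of 10 were called, against 2.15% of all genes tested: 0 were higher, against 1.82% of all genes, and 0 were lower, against 0.332%. DESeq2 and limma-voom also called 0 of 10. At an unadjusted p under 0.05 there was 1, sma-10, against 14.1% of all genes. The log2 fold change, OP50 + MH-1 over OP50, was positive in 6 members and negative in 4, with a median of 0.0092 among members and 0.0027 among all genes tested. The median size of the change, sign set aside, was 0.14 among members and 0.16 among all genes. For each member taken alone, the 95% interval of the fold change lay inside 0.512-fold to 1.95-fold, so each interval excluded a 2-fold difference either way. Those intervals are not adjusted for the number of genes.

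**Figure D1:**
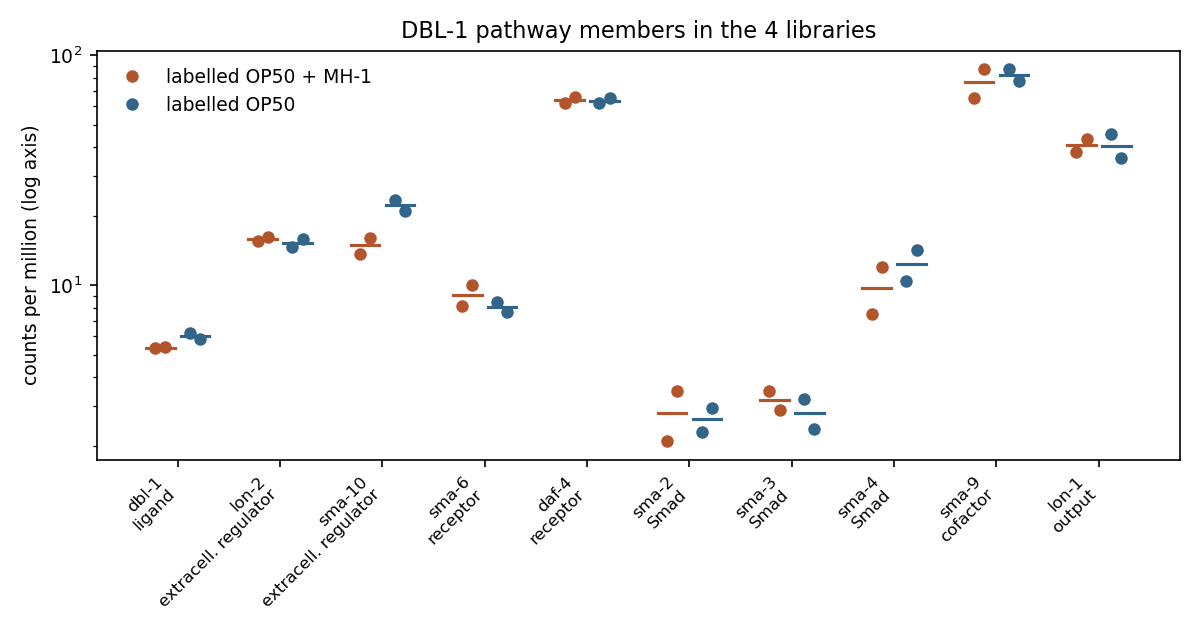
Counts per 1000000 counts of the TMM-scaled library (CPM, log axis) of the 10 members, with 1 dot per library and a line at the mean of 2 libraries, the libraries labelled OP50 + MH-1 on the left of each pair. The groups stand apart in dbl-1 and sma-10 and overlap in the other members.

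The gene for the ligand, dbl-1 (WBGene00000936, chromosome V, 6758135 to 6760418 in ce11, plus strand), is protein coding. It had 5.33 and 5.40 CPM in the libraries labelled OP50 + MH-1, against 6.22 and 5.83 CPM in those labelled OP50. Both libraries labelled OP50 + MH-1 were lower, but the gap was small. The groups did not overlap in 2 of the 10 members, dbl-1 and sma-10, against 46% of all genes tested. OP50 + MH-1 was the lower group in both, as in 21.6% of all genes, and the higher group in 0 members, against 24.4% of all genes. The log2 fold change of dbl-1 was -0.17 ± 0.22 (SE), with an adjusted p of 0.804 by edgeR. These values rest on 86 to 117 reads per library. In whole worms, fewer cells of a type and less RNA per cell cannot be told apart. Neuron markers, the cell class from which most dbl-1 RNA is known to come, summed to 276 and 241 CPM in the libraries labelled OP50 + MH-1, against 243 and 245 CPM in those labelled OP50. Most of that sum was snb-1, named after its values were seen, so the sum says little about the other markers. The log2 fold change of snb-1 was 0.018 ± 0.097 (SE, edgeR). Among the 12 neuron markers the sign was positive in 8 and negative in 4. Without overlap, OP50 + MH-1 was the higher group in 3 and the lower in 2. Of these 12 markers none was called by edgeR, DESeq2 or limma-voom, and 0 had an unadjusted p under 0.05.

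Outside the cell, lon-2 encodes a glypican that binds the ligand and holds signalling down. lon-2 (WBGene00003056, chromosome X, 4738964 to 4749083, minus strand) had 15.7 and 16.3 CPM in the libraries labelled OP50 + MH-1, against 14.7 and 16.0 CPM in those labelled OP50. The groups overlapped, with the log2 fold change at 0.06 ± 0.14 (SE, adjusted p = 0.905, edgeR). Its 95% interval ran from 0.828-fold to 1.31-fold.

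The member farthest from 0 was sma-10 (WBGene00020649, chromosome IV, 274570 to 279940, plus strand), which encodes a membrane protein with leucine-rich and immunoglobulin-like repeats that promotes signalling at the receptors. It had 13.7 and 16.1 CPM in the libraries labelled OP50 + MH-1, against 23.4 and 21.2 CPM in those labelled OP50. Both libraries labelled OP50 + MH-1 lay below both of the others. The fitted fold was 1.49-fold lower, a log2 fold change of -0.57 ± 0.14 (SE), with a 95% interval from -0.91 to -0.24. The unadjusted p was 0.00507 (edgeR quasi-likelihood test), and 518 genes had a smaller one. After adjustment over all genes p was 0.124, which misses the threshold. Over 13 alternative analyses the log2 fold change stayed between -0.70 and -0.46, and the adjusted p between 0.0142 and 0.380. It was called in 1 of the 13, the fit that keeps every gene with at least 1 read. The reads behind it numbered 222 and 350 in the libraries labelled OP50 + MH-1, against 418 and 374 in those labelled OP50.

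Neither receptor gene was called. sma-6 (WBGene00004860, chromosome II, 6324484 to 6327355, plus strand) encodes the type I receptor kinase of this pathway, and it had 8.18 and 10.01 CPM in the libraries labelled OP50 + MH-1, against 8.47 and 7.64 CPM in those labelled OP50. Its log2 fold change was 0.18 ± 0.20 (SE, adjusted p = 0.768, edgeR), with overlapping groups. daf-4 (WBGene00000900, chromosome III, 5625014 to 5632322, plus strand) encodes the type II receptor, which the DAF-7 pathway of dauer control also uses. It had 62.4 and 65.7 CPM in the libraries labelled OP50 + MH-1, against 61.9 and 65.3 CPM in those labelled OP50. The groups overlapped almost fully. With at least 1008 reads per library daf-4 had the narrowest interval of the 10, from 0.879-fold to 1.16-fold with the log2 fold change at 0.01 ± 0.08 (SE, adjusted p = 0.973, edgeR).

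The Smad genes were the least precisely measured members. sma-2 (WBGene00004856, chromosome III, 8749763 to 8757069, plus strand) encodes a receptor-regulated Smad and had 2.11 and 3.46 CPM in the libraries labelled OP50 + MH-1, against 2.30 and 2.94 CPM in those labelled OP50. Its lowest library held 34 reads, where counting error alone is 17.1%. sma-3 (WBGene00004857, chromosome III, 6860939 to 6863968, minus strand) encodes the other receptor-regulated Smad and had 3.47 and 2.86 CPM in the libraries labelled OP50 + MH-1, against 3.196 and 2.38 CPM in those labelled OP50. In both genes the groups overlapped. The log2 fold change was 0.10 ± 0.37 for sma-2 and 0.18 ± 0.32 for sma-3 (SE, adjusted p = 0.943 and 0.861, edgeR). At this depth a difference of up to 1.95-fold in sma-2 or 1.91-fold in sma-3 lay within the 95% interval.

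sma-4 (WBGene00004858, chromosome III, 5816203 to 5820200, plus strand) encodes the co-Smad that joins the other two. It had 7.49 and 12.04 CPM in the libraries labelled OP50 + MH-1, against 10.5 and 14.2 CPM in those labelled OP50. The groups overlapped, and replicate 2 was higher than replicate 1 in each. The log2 fold change was -0.33 ± 0.27 (SE, adjusted p = 0.649, edgeR), and it was -0.72 when OP50 + MH-1 replicate 2 was left out and -0.03 when replicate 1 of that food was. Relative to its mean, sma-4 varied by 32.9% (SD) between the libraries labelled OP50 + MH-1 and by 21.3% between those labelled OP50.

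In the nucleus, sma-9 encodes a large zinc finger protein related to Schnurri, a cofactor of Smads. sma-9 (WBGene00004862, chromosome X, 10769288 to 10782973, plus strand) had 65.6 and 87.0 CPM in the libraries labelled OP50 + MH-1, against 87.0 and 77.4 CPM in those labelled OP50. One library, OP50 + MH-1 replicate 1, was below the other 3. The log2 fold change was -0.10 ± 0.14 (SE, adjusted p = 0.803, edgeR), -0.33 with OP50 + MH-1 replicate 2 left out and 0.09 with replicate 1 of that food left out. lon-1 (WBGene00003055, chromosome III, 5474478 to 5478005, plus strand) encodes a cysteine-rich secretory protein family member whose expression DBL-1 signalling is known to hold down. It had 38.2 and 43.3 CPM in the libraries labelled OP50 + MH-1, against 45.4 and 35.7 CPM in those labelled OP50. The 2 libraries labelled OP50 enclosed the other 2, and the log2 fold change was 0.0075 ± 0.14 (SE, adjusted p = 0.987, edgeR).

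**Figure D2:**
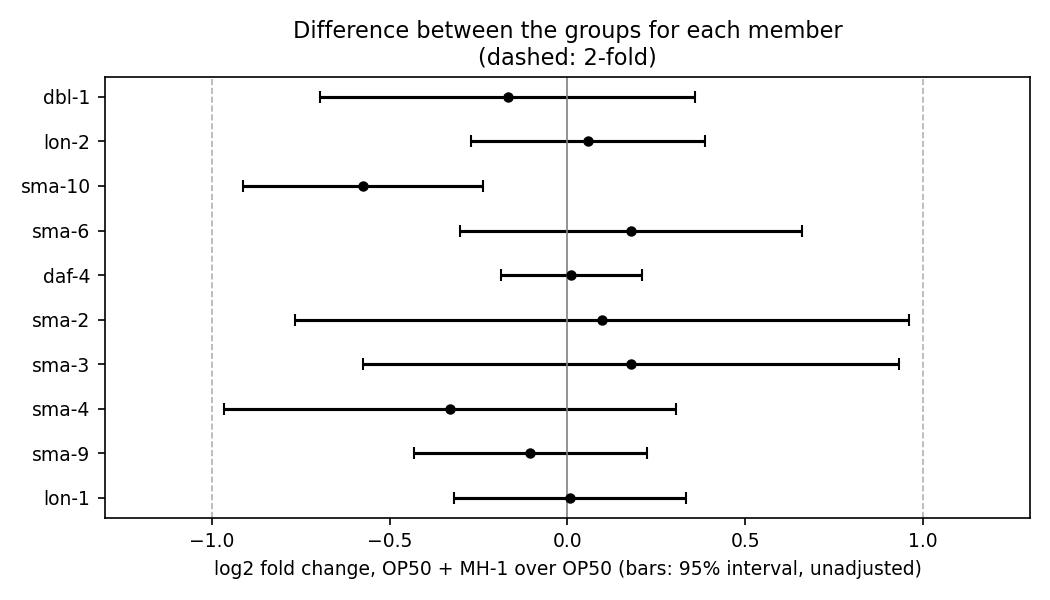
Log2 fold change of each member, OP50 + MH-1 over OP50, with its unadjusted 95% interval as a bar and a 2-fold change as dashed lines. The interval of sma-10, from -0.91 to -0.24, lies wholly below 0, while those of the other 9 members cross it.

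Levels between the members were compared per length, as TPM, the count per base of gene length scaled to a total of 1000000 in every library, computed from the counts and lengths of the tables. The 10 genes spanned 19.4-fold. lon-1 was highest, at 46.7 ± 5.58 TPM in the libraries labelled OP50 + MH-1, against 46.2 ± 6.20 TPM in those labelled OP50 (SD, n = 2 each). daf-4 followed with 26.8 ± 1.77 TPM with OP50 + MH-1 and 26.5 ± 1.95 TPM with OP50 (SD, n = 2 each). These 2 lay above the median of all tested genes, 16.0 TPM, and the other 8 below it. The lowest was sma-2, at 2.47 ± 0.919 TPM in the libraries labelled OP50 + MH-1, against 2.31 ± 0.484 TPM in those labelled OP50, which placed it at percentile 20.9 of the genes tested. Between them, over all 4 libraries, sma-9 stood at 13.6 ± 1.85 TPM, lon-2 at 10.98 ± 0.735 TPM and sma-10 at 8.64 ± 2.04 TPM (SD). Next came sma-4 at 7.79 ± 2.16 TPM, sma-6 at 5.40 ± 0.707 TPM, dbl-1 at 4.42 ± 0.305 TPM and sma-3 at 2.97 ± 0.405 TPM (SD over 4 libraries).

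Some neighbours in that order could not be separated. The 4-library ranges of lon-1 and daf-4, of daf-4 and sma-9, of sma-6 and dbl-1 and of dbl-1 and sma-3 did not overlap. Those of sma-9 and lon-2, lon-2 and sma-10, sma-10 and sma-4, sma-4 and sma-6, and sma-3 and sma-2 did. Within single libraries, sma-9 was above lon-2 and sma-4 above sma-6 in 4 of 4, whereas sma-10 was above sma-4, and sma-3 above sma-2, in 2 of 4.

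**Figure D3:**
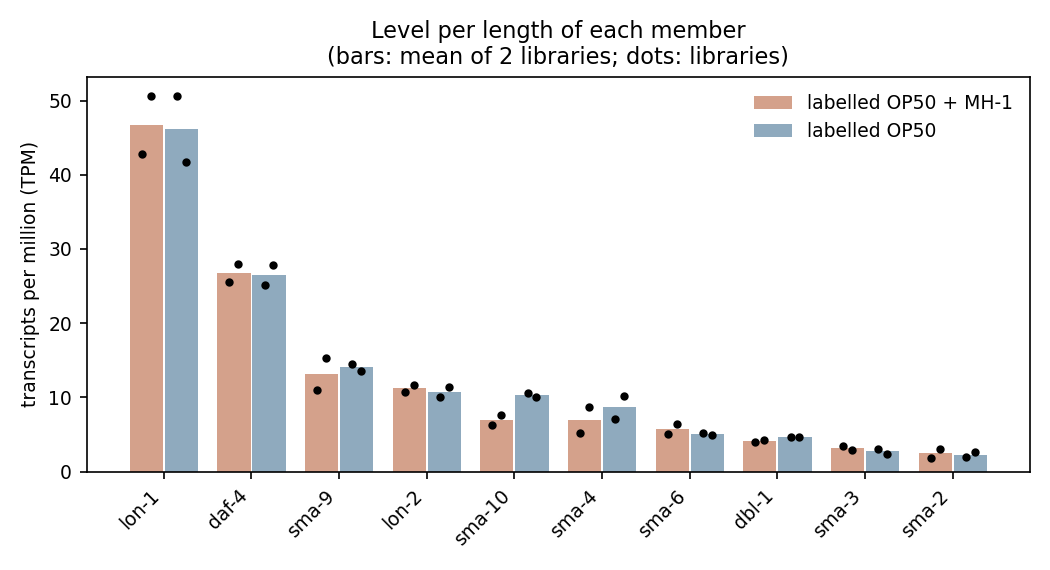
Level per length (TPM) of each member, ordered from lon-1 to sma-2, with bars for the mean of 2 libraries and dots for single libraries, the libraries labelled OP50 + MH-1 on the left of each pair. lon-1 averages 46.7 TPM with OP50 + MH-1 and 46.2 TPM with OP50, and the Smad genes sma-3 and sma-2 lie near 3 TPM or below.

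The balance of partners within a library was also compared. RNA of the type I receptor gene sma-6 was 0.198 and 0.230 of that of the type II receptor gene daf-4 in the libraries labelled OP50 + MH-1, against 0.206 and 0.177 in those labelled OP50. The receptor-regulated Smads sma-2 and sma-3 together were 1.01 and 0.699 of sma-4 in the libraries labelled OP50 + MH-1, against 0.710 and 0.499 in those labelled OP50. In both ratios the groups overlapped. RNA of the inhibitor lon-2 was 2.65 and 2.72 times that of the ligand gene dbl-1 in the libraries labelled OP50 + MH-1, against 2.14 and 2.47 times in those labelled OP50. This ratio was higher in both libraries labelled OP50 + MH-1, but the two-sided exact permutation p was 0.333, the smallest that 2 against 2 libraries allow. sma-2 over sma-3, a ratio added after the data were seen, was 0.533 and 1.06 in the libraries labelled OP50 + MH-1, against 0.632 and 1.09 in those labelled OP50. Over the 4 ratios the Benjamini-Hochberg adjusted p was 0.667 for each (exact permutation test).

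The members share more than signalling in the deposited annotation. All 10 are protein coding. Of the 10, 9 carry the gene ontology term for regulation of mesodermal cell fate specification, which marks 21 genes of the tables, with sma-6 the exception. Positive regulation of multicellular organism growth is given to 8, and its negative regulation to lon-1 and lon-2. By position, 5 lie on chromosome III, where lon-1, daf-4 and sma-4 fall within 346 kilobases of each other, and 2 lie on X. Of the 10 genes, 9 have no exon in common with another gene of the tables. The exception is sma-2, which shares 75 exonic bases with aak-1, an AMP-activated kinase gene on the other strand that had 528 to 687 reads per library. The library kit preserved strand, but the sources used here do not give the strand setting of the counting, so reads of sma-2, 34 to 75 per library, cannot be told apart from those of aak-1 within the shared bases. An intron of daf-4 holds the noncoding RNA gene C05D2.11, with no shared exon.

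Genes known to modulate DBL-1 signalling did not pass either. All 13 of that list were tested and 0 were called by edgeR. At an unadjusted p under 0.05 there were 3, against 14.1% of all genes tested. DESeq2 called 1 of them higher and limma-voom 0. The median log2 fold change was -0.0030. Without overlap, OP50 + MH-1 was the higher group in 5 of the 13, against 24.4% of all genes tested, and the lower in 1, against 21.6%. Taking both directions, groups did not overlap in 46% of all genes tested. tsp-14, a tetraspanin that aids receptor trafficking, had 10.7 and 6.64 CPM in the libraries labelled OP50 + MH-1, against 3.42 and 2.04 CPM in those labelled OP50. The groups did not overlap, and the log2 fold change was 1.66 ± 0.36 (SE, adjusted p = 0.0799, edgeR). It passed with DESeq2 (adjusted p = 0.00392), with total counts as the only scaling (adjusted p = 0.0399, edgeR) without OP50 replicate 1 (adjusted p = 0.00526, edgeR), with the replicate block (adjusted p = 0.00732, edgeR) and with every gene of at least 1 read kept (adjusted p = 3.51e-07, edgeR), while limma-voom gave an adjusted p of 0.127. A second tetraspanin gene, tsp-21, had 26.1 and 28.3 CPM in the libraries labelled OP50 + MH-1, against 18.1 and 20.8 CPM in those labelled OP50. Its groups were also apart, with the log2 fold change at 0.49 ± 0.13 (SE, adjusted p = 0.132, edgeR), and it passed when every gene of at least 1 read was kept (adjusted p = 0.0215, edgeR). The third at an unadjusted p under 0.05, named after its value was seen, was smoc-1, an extracellular modulator with 1.86 and 1.71 CPM in the libraries labelled OP50 + MH-1, against 0.897 and 0.906 CPM in those labelled OP50 (adjusted p = 0.354, edgeR). The partner tetraspanin gene tsp-12, also named after its values were seen, had 99.2 and 104.2 CPM in the libraries labelled OP50 + MH-1, against 103 and 104.3 CPM in those labelled OP50.

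The DAF-7 branch, which shares daf-4, and the remaining TGF-beta genes showed no call. Of 10 genes, 9 were tested and tig-3 was too low. Neither edgeR, DESeq2 nor limma-voom called any, 1 had an unadjusted p under 0.05, and the median log2 fold change was 0.08. That gene was unc-129, a ligand of the family that guides axons, with 7.18 and 6.83 CPM in the libraries labelled OP50 + MH-1, against 3.93 and 2.83 CPM in those labelled OP50. Its log2 fold change was 1.05 ± 0.26 (SE, adjusted p = 0.126, edgeR), and it passed when every gene of at least 1 read was kept (adjusted p = 0.00608, edgeR). daf-14, a Smad gene of the DAF-7 branch, had 11.1 and 14.9 CPM in the libraries labelled OP50 + MH-1, against 11.5 and 10.4 CPM in those labelled OP50 (log2 fold change 0.26 ± 0.20, SE, adjusted p = 0.621, edgeR). The ligand gene daf-7, named after its values were seen, was low, with 3.10 and 3.28 CPM in the libraries labelled OP50 + MH-1, against 3.03 and 2.49 CPM in those labelled OP50.

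**Figure D4:**
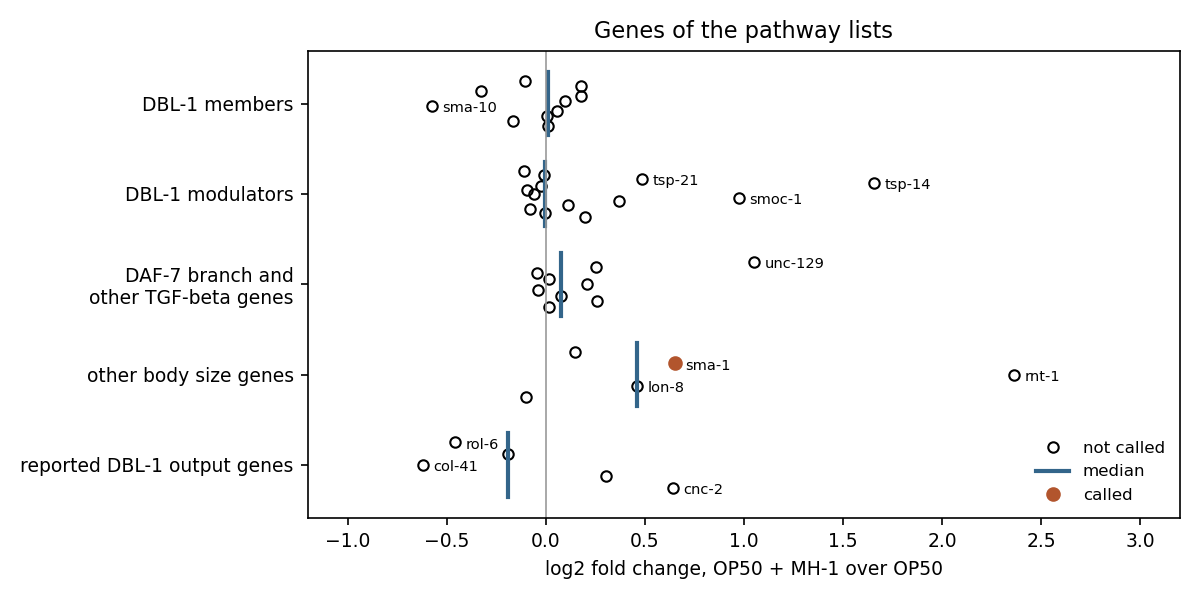
Log2 fold change, OP50 + MH-1 over OP50, of each tested gene in 5 pathway lists, with filled dots for called genes, open dots for the others and a bar at the list's median. The 1 filled dot is sma-1, at 0.65.

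Among other genes that affect body size, sma-1 rose with OP50 + MH-1. sma-1 encodes a heavy beta-spectrin of the apical membrane skeleton, and its small phenotype arises in embryonic elongation, apart from DBL-1. It had 335 and 302 CPM in the libraries labelled OP50 + MH-1, against 212 and 193 CPM in those labelled OP50. Both libraries labelled OP50 + MH-1 were higher, with the log2 fold change at 0.65 ± 0.09 (SE, adjusted p = 0.0221, edgeR). The call held in all 13 alternative analyses run, with adjusted p between 9.03e-11 and 0.0432. It was the 1 called of 5 tested genes in a list of 6, and lon-3 was too low to test. The list's median of 0.46 was the value of lon-8, named after its value was seen. lon-8 had 12 to 32 reads per library, with the log2 fold change at 0.46 ± 0.54 (SE, adjusted p = 0.775, edgeR). rnt-1, a Runx factor named after its value was seen, had 19 and 14 reads in the libraries labelled OP50 + MH-1, against 3 and 3 reads in those labelled OP50, with an adjusted p of 0.183 (edgeR). At 3 reads per library the OP50 group is at the limit of detection used here, so no fold is given.

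None of the genes reported to respond to DBL-1 was called. Of 7, 5 were tested: spp-9 and col-141 were too low. edgeR, DESeq2 and limma-voom called 0, with 1 at an unadjusted p under 0.05 and a median log2 fold change of -0.19. That gene, the lysozyme lys-8, had 217 and 209 CPM in the libraries labelled OP50 + MH-1, against 237 and 250 CPM in those labelled OP50 (log2 fold change -0.19 ± 0.07, SE, adjusted p = 0.305, edgeR). The antimicrobial peptide gene cnc-2 had 3.59 and 2.35 CPM in the libraries labelled OP50 + MH-1, against 1.35 and 2.43 CPM in those labelled OP50. The 3 tested cuticle collagens of this list were named after their values were seen. col-142 had 8.36 and 10.29 CPM in the libraries labelled OP50 + MH-1, against 8.24 and 6.91 CPM in those labelled OP50, groups that did not overlap, and its log2 fold change of 0.30 ± 0.21 (SE) had an adjusted p of 0.589 (edgeR). col-41 had 6.57 and 2.40 CPM in the libraries labelled OP50 + MH-1, against 12.9 and 0.679 CPM in those labelled OP50. rol-6 had 2.29 and 0.5998 CPM in the libraries labelled OP50 + MH-1, against 3.87 and 0 CPM in those labelled OP50. In col-41 and rol-6 replicate 1 was above replicate 2 in both groups, and the sign turned when single libraries were left out: for col-41 it was 2.69 on the log2 scale with OP50 replicate 1 left out (adjusted p = 0.0280, edgeR) and -1.55 with OP50 replicate 2 left out (adjusted p = 0.0291, edgeR).

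Some markers of tissues and stages moved between the groups, and their part in the values above was not tested. Epidermis markers, of the tissue in which the pathway sets body size, summed to 532 and 535 CPM in the libraries labelled OP50 + MH-1, against 492 and 439 CPM in those labelled OP50. Most of that sum was col-19, named after its values were seen and not called. col-19 had 310 and 344 CPM in the libraries labelled OP50 + MH-1, against 321 and 285 CPM in those labelled OP50. Of 7 tested, 2 were called higher, nhr-25 and dpy-7, against 1.82% of all genes tested. Their log2 fold changes were 1.51 and 3.15. Among the 7 the sign was positive in 6 and negative in 1, col-10 (-0.45), which was not called. bli-1 was at 0 in all libraries. Molting markers summed to 457 and 364 CPM in the libraries labelled OP50 + MH-1, against 180 and 148 CPM in those labelled OP50. Of the 11, 6 were called higher (mlt-11, noah-1, noah-2, fbn-1, acn-1 and lpr-3), by 1.71 to 2.57 on the log2 scale. The sign was positive in 9 and negative in 2, nas-37 (-0.23) and nhr-23 (-0.16), neither called. nhr-23 was lower in both libraries labelled OP50 + MH-1 than in both labelled OP50. Embryo markers summed to 424 and 411 CPM in the libraries labelled OP50 + MH-1, against 295 and 281 CPM in those labelled OP50. Of the 13, 3 were called higher (hch-1, pha-4 and sym-1), by 1.25 to 3.27 on the log2 scale. The sign was positive in 9 and negative in 4 (end-1, end-3, pal-1 and pes-1), at -0.37 to -0.08, none of them called. Of the called epidermis, molting and embryo markers, nhr-25, pha-4 and lpr-3 passed in every alternative run. The others missed the threshold with a robust spread estimate (robust=TRUE in edgeR), at adjusted p of 0.06345 to 0.224, and all kept their sign. By limma-voom dpy-7 and acn-1 also missed it (adjusted p = 0.161 and 0.127), so that it called 1 epidermis, 5 molting and 3 embryo markers, and acn-1 missed it with legacy=FALSE in edgeR (adjusted p = 0.0507). DESeq2 called 2 epidermis, 7 molting and 3 embryo markers, all higher. Without OP50 + MH-1 replicate 1, fbn-1, sym-1, acn-1 and mlt-11 missed it, at adjusted p of 0.0628 to 0.0844 (edgeR), and with replicate 2 of that food left out sym-1 and fbn-1 did, at 0.0543 and 0.0588. Beside these sums, the 10 members together gave 222 and 262 CPM in the libraries labelled OP50 + MH-1, against 263 and 248 CPM in those labelled OP50, and overlapped.

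Germline and oocyte markers summed to 11591 and 12090 CPM in the libraries labelled OP50 + MH-1, against 13717 and 13764 CPM in those labelled OP50. All 14 had a negative log2 fold change, with 0 called by edgeR or limma-voom and 1 called lower by DESeq2 (mex-5). At an unadjusted p under 0.05 there were 2, against 14.1% of all genes tested. In 13 of the 14 both libraries labelled OP50 + MH-1 were below both labelled OP50, against 21.6% of all genes tested. Pharynx muscle markers, of an organ in which sma-3 acts, summed to 54.4 and 76.8 CPM in the libraries labelled OP50 + MH-1, against 81.4 and 79.5 CPM in those labelled OP50. None of these 4 was called by edgeR, DESeq2 or limma-voom, and 0 had an unadjusted p under 0.05. Intestine markers summed to 30244 and 50519 CPM in the libraries labelled OP50 + MH-1, against 44087 and 46849 CPM in those labelled OP50, and most of that sum was vit-2 and vit-6. Of the 8, edgeR and limma-voom called 0, and 4 had an unadjusted p under 0.05, against 14.1% of all genes tested. These were ges-1, asp-1, mtl-2 and ifb-2, named after their values were seen, with log2 fold changes of -0.72 to -0.34. Each was lower in both libraries labelled OP50 + MH-1 than in both labelled OP50, as were 21.6% of all genes tested. The sign was positive in 2 of the 8, elt-2 at 0.39 and act-5 at 0.01, also named after their values were seen. elt-2 was higher in both libraries labelled OP50 + MH-1 (adjusted p = 0.524, edgeR). DESeq2 called 1 of the 8, asp-1, lower (adjusted p = 4.73e-05). The 5 sperm markers were too low to test, and msd-1 was at 0 throughout.

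**Figure D5:**
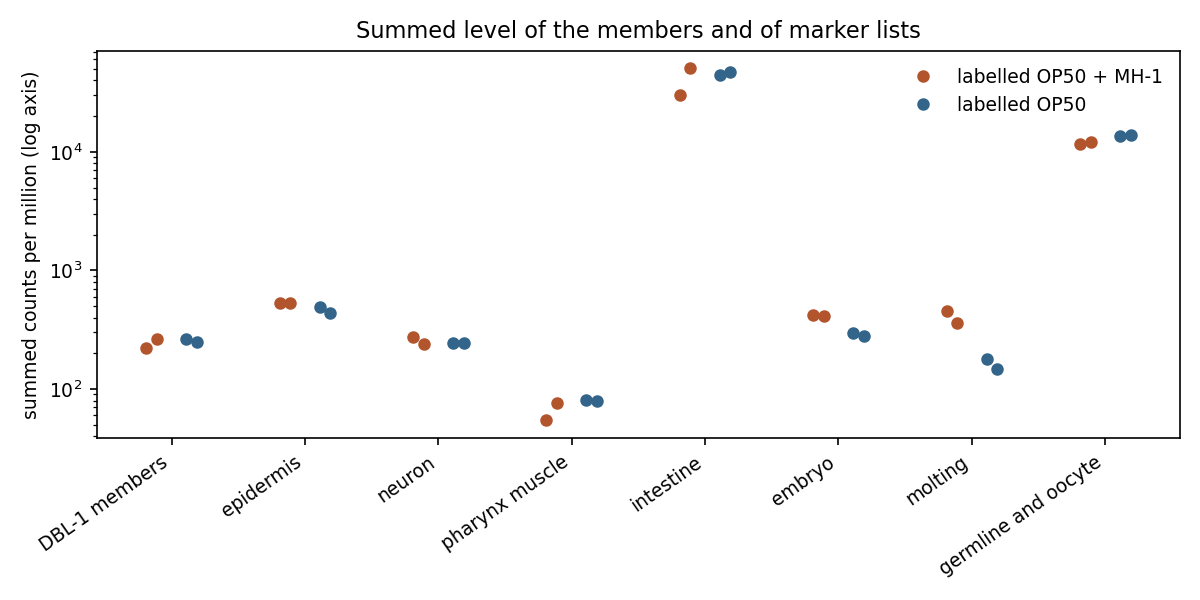
Summed CPM (log axis) of the 10 members and of 7 marker lists in each library, with the libraries labelled OP50 + MH-1 on the left of each pair. The epidermis, molting and embryo sums are higher in both libraries labelled OP50 + MH-1. Lower in both are the sums of pharynx muscle and of germline and oocyte markers. The sums of the members, 222 and 262 CPM with OP50 + MH-1 against 263 and 248 CPM with OP50, overlap.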

How the data were processed

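RNA of whole worms was measured as raw counts of reads per gene, deposited by the authors as 1 table per library, per the file headers. The submitters' processing notes name featureCounts 2.0.1, STAR 2.7.10a, the trimmers cutadapt 3.7, Trimmomatic 0.39 and Trim Galore 0.6.7, and the build ce11 (WBcel235). The sources used here do not give their order, the strand setting or the handling of reads with several matches. Coordinates are those of the tables, and gene types, protein coding or noncoding, are those of Ensembl release 115. The deposited tables also give a length in bases for each gene, and from it TPM were computed.

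From these counts, edgeR 4.0.16 (R 4.3.3) kept 12640 genes by filterByExpr, with 10 as its minimum count and 15 as its minimum total. Libraries were scaled by TMM, the quasi-likelihood test had the group as its only term, and p-values were adjusted by Benjamini-Hochberg over all genes kept. A standard error is the size of the log2 fold change divided by the square root of F, and a 95% interval uses the test's degrees of freedom. CPM are scaled to the TMM-adjusted library size, where 3 counts correspond to between 0.139 and 0.190 CPM (by total counts, counting error only). Alternatives, 13 in all, covered scaling, filter, tool (DESeq2 1.42.0, limma-voom in limma 3.58.1), dispersion settings, a replicate block and each library left out. Every pair of libraries differed by more than counting noise, since chi-square divided by its degrees of freedom was 10.1 or more. It was 10.1 between the libraries labelled OP50 and 24.8 between those labelled OP50 + MH-1. Against the libraries labelled OP50 it was 26.5 and 33.6 for OP50 + MH-1 replicate 1. For OP50 + MH-1 replicate 2 it was 19.6 and 18.9, below the value between the replicates of that food. The fit was tested on simulated data.

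All 10 members are described. From each other pathway list the called genes are named, or else the 2 with the smallest p, and further genes are marked as named after their values were seen. The members and lists were chosen with earlier results of these data known. The gene ontology lists were added after the tables were read. smoc-1 was matched through its gene identifier. Figures were drawn with matplotlib 3.10.9 in Python 3.11.15.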

Additional observations from a re-analysis of the deposited data

How the results depend on the processing

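Of 130 alternative values of the members, 118 kept their sign and their side of the threshold. sma-10 became called with no filter beyond 1 read (log2 fold change -0.57), a fit that called 815 genes higher and 297 lower over all genes, and that gave 1 call among the members, 2 among the modulators and 1 in the DAF-7 list. Signs turned in 11 values, none of them called. daf-4 was -0.0027 with DESeq2, and between -0.028 and 0.052 over the fits with 1 library left out. lon-1 was -0.0027 with DESeq2 size factors and -0.0062 with DESeq2, and between -0.16 and 0.19 with 1 library left out. The same left-out fits gave -0.32 to 0.41 for sma-2, -0.022 to 0.41 for sma-3 and -0.33 to 0.088 for sma-9.

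Over all genes, 230 were higher and 42 lower. DESeq2 called 345 higher and 90 lower, and limma-voom 135 higher and 27 lower. With total counts only, 336 were higher and 47 lower. Leaving out 1 library gave 99 (without OP50 + MH-1 replicate 1) to 395 (without OP50 replicate 1) higher. Lower genes numbered 20 with OP50 + MH-1 replicate 1 left out and up to 95 with its replicate 2 left out. In these fits the lone library is assumed to vary like the other group. Among the modulators 1 gene was called with total counts only, with DESeq2 and without OP50 replicate 1, and between 0 and 1 over the left-out fits. In the list of reported outputs these gave 0 to 2 higher and 0 to 1 lower. rol-6 was 1.73 with limma-voom, 0.24 with OP50 + MH-1 replicate 2 left out and 7.72 with OP50 replicate 1 left out, a fit against a lone library at 0 counts that depends on the prior count. Without the other libraries it was -1.67 and -1.46. col-41 was 0.30 with limma-voom and between -1.55 and 2.69 with 1 library left out. tsp-12 was 0.017 with total counts only and between -0.061 and 0.015 with 1 library left out. The same left-out fits gave -0.51 to 0.11 for vit-2 and -0.67 to 0.25 for vit-6. asp-1 was called lower with no filter beyond 1 read, DESeq2, the replicate block and without OP50 replicate 1, and mtl-2 with no filter and with the block. The cause of these shifts was not tested.

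Replicate numbers are shared between the groups, but no label says that they pair cultures. The correlation of same-numbered libraries' deviations was 0.209 over 12640 genes. With the replicate block 450 genes were higher and 109 lower, 1 of them a modulator and none a member, and rol-6 was at 0.17.

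As TMM-scaled CPM per kilobase of gene length, a scale on which totals differ from TPM, the group means in libraries labelled OP50 + MH-1 and labelled OP50 were 34.7 and 34.6 for lon-1, 19.9 and 19.8 for daf-4, 9.77 and 10.5 for sma-9, 8.34 and 8.01 for lon-2, 5.17 and 7.71 for sma-10, 5.11 and 6.46 for sma-4, 4.27 and 3.78 for sma-6, 3.10 and 3.49 for dbl-1, 2.36 and 2.08 for sma-3, and 1.82 and 1.72 for sma-2. Depth limited sma-2 and sma-3 most, at 34 to 75 reads per library.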

Other observations

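Outside the 10 members, the tables annotate 41 genes with positive regulation of multicellular organism growth, a list added after the tables were read. Of the 40 tested, edgeR called 2 higher, sma-1 and unc-44, against 1.82% of all genes tested, and 0 lower. These also rose by limma-voom, which called 2, and by DESeq2, which called 3 higher, with dpy-18 added, and 1 lower, daf-2 (log2 fold change -0.49, adjusted p = 0.0346). unc-44 encodes a large ankyrin that links membrane proteins to the spectrin skeleton. It had 239 and 215 CPM in the libraries labelled OP50 + MH-1, against 149 and 133 CPM in those labelled OP50, with the log2 fold change at 0.69 ± 0.09 (SE, adjusted p = 0.0197, edgeR). Both libraries labelled OP50 + MH-1 were above both of the others. Of the 9 further genes annotated with TGF-beta receptor signalling, edgeR, DESeq2 and limma-voom called 0 and 0 had an unadjusted p under 0.05, and 7 had a positive log2 fold change. These include mab-31, kin-29 and several DAF-7 branch genes already counted in the lists of modulators and of that branch. Of the 9 genes annotated with negative regulation of organism growth outside the members, 7 were tested and edgeR, DESeq2 and limma-voom called 0, with 1 at an unadjusted p under 0.05.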
